A study of Mus musculus with 12 samples.

Results

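Steroid hormone synthesis genes in the aorta were examined as a group of 10 genes, among 12394 genes that have a probe set of their own on the aorta arrays. They are Hsd3b1, Star, Cyp11a1, Cyp21a1, Cyp11b2, Akr1cl, Mgarp, Mc2r, Mrap and Fdx1, and 14 probe sets carry the symbol of one of them alone. The group was put together from its values in these same 2 aorta pools, so its aorta differences are given as a description without a test. The macrophage and liver arrays took no part in that choice.

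The study compared Prkch-/-Apoe-/- mice, called knockouts here, with Apoe-/- mice, and all were on C57BL/6J. All groups therefore lack Apoe, which carries cholesterol in lipoproteins, and the knockouts in addition lack Prkch, which encodes the eta form of protein kinase C. Fed males, 20 weeks old and kept on high fat diet for 12 weeks, gave the aortas, with 1 array for the knockouts and 1 for the Apoe-/- mice, each of RNA pooled from 4 mice. Livers came from re-fed males of the same age and diet, with 2 arrays per genotype. Thioglycolate-elicited peritoneal macrophages, unstimulated, were taken from regular-diet females, 3 arrays for each genotype, and the ages of replicates 1, 2 and 3 were 18, 17 and 27 weeks in both genotypes. Neither the deleted stretch of Prkch nor the cells that lack it are given in the labels.

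Steroid hormones are made from cholesterol, which Star brings to the inner mitochondrial membrane, where Cyp11a1 cuts off its side chain. Hsd3b1 and Cyp21a1 then modify the product in the endoplasmic reticulum, and in the adrenal cortex the pituitary hormone ACTH drives the process through its receptor Mc2r. The adrenal cortex and the gonads are its main sites, and the aortic wall is not one.

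In the aorta, 9 of the 10 genes were bright enough to be counted, and 6 of these 9 were at least 2-fold higher in the knockout pool than in the Apoe-/- pool after 16 was added to each signal: Hsd3b1, Akr1cl, Star, Mgarp, Cyp11a1 and Cyp21a1. Of all 7098 genes counted that way, 62 (0.873%) were at least 2-fold higher, and since the members were picked from this contrast nothing is read from the gap between these shares. Hsd3b1 had a signal of 563 in the knockout pool, against 0.806 in the Apoe-/- pool. The signal of Mc2r was 44.3 in the knockout pool and 16.1 in the Apoe-/- pool, a difference of 0.91 on that damped log2 scale and so short of 2-fold there, while Mrap and Fdx1 were each above the threshold in both pools, with differences of -0.09 and 0.34. With 1 array per genotype these differences have no replicate check. In RNA from whole tissue, fewer cells of a type and less RNA per cell cannot be told apart.

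Values in the aorta are the authors' linear signal, and differences between the pools are on the log2(signal + 16) scale, knockout minus Apoe-/-, which understates the change of dim genes. Probe sets were kept if the higher of their 2 signals reached 32.6, which is the median of that higher signal. Of the 14 probe sets 12 were kept, and of the 10 genes 9, all but Cyp11b2. Where the Apoe-/- signal lay below 32.6, the knockout signal divided by 32.6 is given as a lower bound of the fold. Differences were taken within probe sets. Signals were compared between probe sets to pick the brightest of a gene. In signals summed over marker genes, bright probe sets weigh most.

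**Figure D1:**
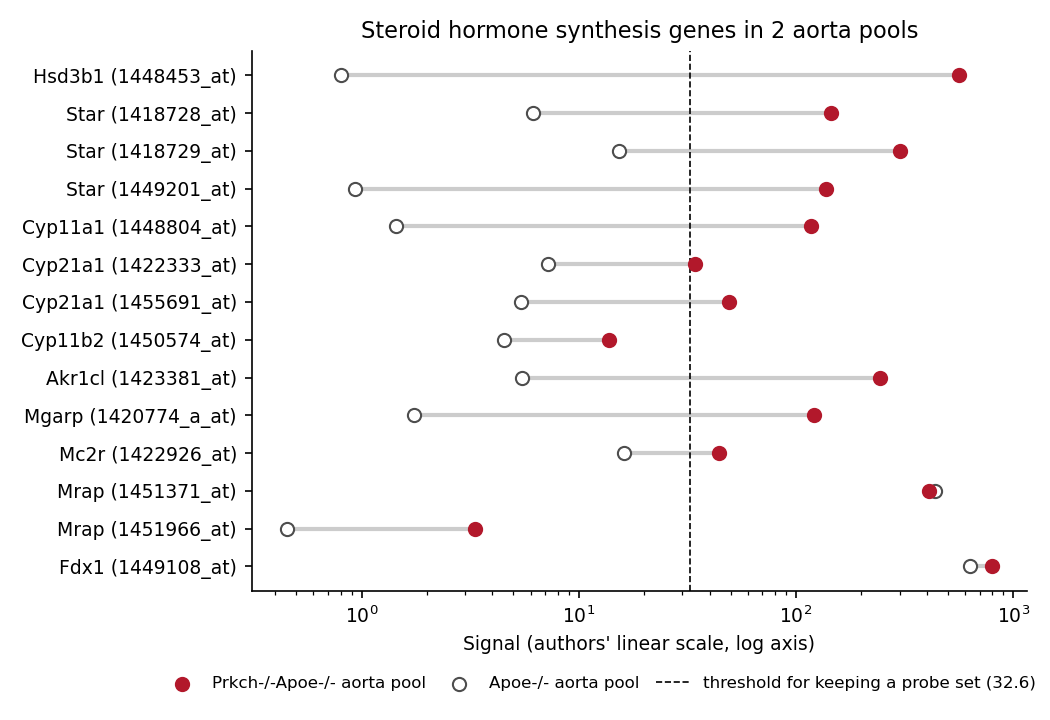
Signal of each probe set of the 10 genes in the knockout aorta pool (filled red) and the Apoe-/- aorta pool (open), on a log axis, with the threshold of 32.6 as a dashed line. For 10 probe sets the Apoe-/- signal lies below the threshold and the knockout signal above it.

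Star encodes the steroidogenic acute regulatory protein, which moves cholesterol into mitochondria. Its 3 probe sets read 302, 145 and 138 in the knockout pool, against 15.3, 6.14 and 0.937 in the Apoe-/- pool. The 3 probe sets thus agree in direction, with differences of 3.34, 2.87 and 3.18, and the brightest was at least 9.26-fold higher in the knockout pool.

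Cyp11a1, the side-chain cleavage enzyme that makes pregnenolone, read 117 in the knockout pool and 1.45 in the Apoe-/- pool. Its difference was 2.93, at least 3.59-fold. Fdx1, ferredoxin 1, passes electrons to mitochondrial P450 enzymes such as Cyp11a1 and is used in many tissues. It read 798 in the knockout pool and 629 in the Apoe-/- pool, a difference of 0.34, above the threshold in both.

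Hsd3b1, a 3-beta-hydroxysteroid dehydrogenase that turns pregnenolone into progesterone, had the largest difference of all 7098 genes kept, 5.11. This is 34.4-fold on the damped scale and at least 17.2-fold against the threshold. Its probe set stood at percentile 94.3 of the knockout array and percentile 7.34 of the Apoe-/- array. Genes of the Hsd3b family are close in sequence, and what share of this signal comes from a relative was not tested. The probe set of Hsd3b3 alone read 15.2 in the knockout pool and 2.30 in the Apoe-/- pool, and that of Hsd3b2 alone 0.379 and 1.95, in the same order of pools.

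Cyp21a1, the 21-hydroxylase needed for both corticosterone and aldosterone, had 2 probe sets in the aorta. They read 49.2 and 34.4 in the knockout pool, against 5.40 and 7.19 in the Apoe-/- pool. The differences were 1.61 and 1.12, so the dimmer probe set was the nearest above the 2-fold line, and Mc2r with 0.91 the nearest below it. Cyp11b2, aldosterone synthase, read 13.8 in the knockout pool and 4.51 in the Apoe-/- pool, below the threshold in both. Its close relative Cyp11b1 has no probe set of its own symbol here and was not analysed.

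Akr1cl belongs to the aldo-keto reductases, a family with several steroid-converting members. It read 243 in the knockout pool and 5.50 in the Apoe-/- pool, a difference of 3.59 and at least 7.44-fold. Mgarp encodes a mitochondrial protein found in steroid-producing cells. Its signal was 121 in the knockout pool and 1.75 in the Apoe-/- pool, a difference of 2.95 and at least 3.70-fold. By difference Akr1cl ranked 2 and Mgarp 5 among the genes kept, with Hsd3b1 at rank 1, Star at 3 and Cyp11a1 at 6. The order rests on Apoe-/- signals below the threshold and changed with the pseudocount: with 1 in place of 16 the differences were 8.29 for Hsd3b1, 5.59 for Cyp11a1, 5.47 for Mgarp, 5.23 for Akr1cl and 4.22 for Star.

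Mc2r, the ACTH receptor, had a difference of 0.91, and its Apoe-/- signal of 16.1 was below the threshold. Mrap encodes the accessory protein that carries this receptor to the cell surface, and it is also expressed in fat. Its bright probe set read 409 in the knockout pool and 437 in the Apoe-/- pool, a difference of -0.09. The dim probe set read 3.34 and 0.453, in the same order of pools, below the threshold in both. Receptor and accessory protein thus did not show the same pattern: of the pair, Mrap was bright in both pools.

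**Figure D2:**
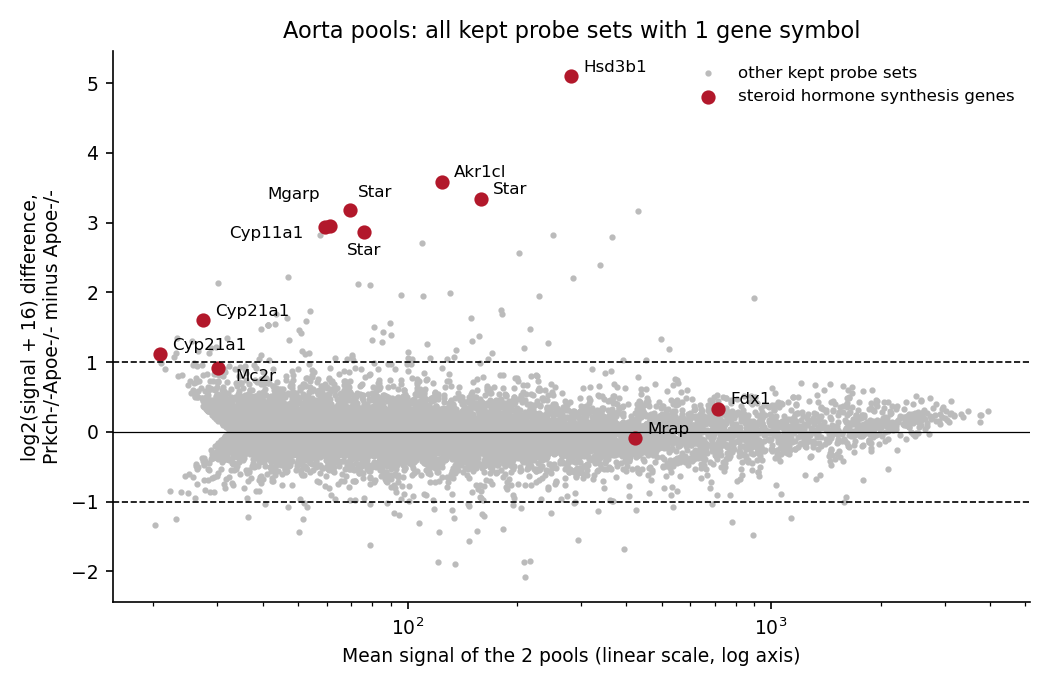
Difference between the aorta pools on the log2(signal + 16) scale, knockout minus Apoe-/-, against the mean signal, for all 10375 kept probe sets with 1 gene symbol. The steroid hormone synthesis genes are in red, and the dashed lines mark 2-fold. Probe sets of Hsd3b1, Akr1cl, Star, Mgarp and Cyp11a1 lie above 2.8, while Mrap and Fdx1 lie near 0.

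Besides the 62 kept genes at least 2-fold higher in the knockout pool, 28 (0.394%) were at least 2-fold lower. With both arrays scaled to the same median the split was 55 higher and 45 lower. Among kept probe sets with 1 symbol, 0.829% were higher and 0.443% lower by that measure, and 9 of the 12 kept probe sets of the 10 genes were higher. The median difference was 2.93 for the 9 kept members and -0.01 for all kept genes. The members were picked from this contrast, and those dim in the Apoe-/- pool were kept only through the knockout pool. Nothing is therefore read from how the members stand beside all genes or probe sets.

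Promoter windows of RefSeq on GRCm38.p6 ran from 250 bases before to 50 after the annotated start of transcription. Those of 5 of the genes were used: Hsd3b1, Cyp11a1 with 2 starts, Akr1cl, Mgarp and Fdx1. The other members were not searched. They are shown for Hsd3b1, Akr1cl and the downstream start of Cyp11a1, the first because it had the largest difference and the others because they hold a motif match. The motifs searched on both strands were AAGGTCA, a core of sites bound by the steroidogenic factor Nr5a1, its looser form AAGGNCA, the nuclear receptor half-site AGGTCA, which lies inside AAGGTCA, and the TATA motif TATAAA. Capitals mark matches.
Hsd3b1, chr3:98859745-98860044, minus strand: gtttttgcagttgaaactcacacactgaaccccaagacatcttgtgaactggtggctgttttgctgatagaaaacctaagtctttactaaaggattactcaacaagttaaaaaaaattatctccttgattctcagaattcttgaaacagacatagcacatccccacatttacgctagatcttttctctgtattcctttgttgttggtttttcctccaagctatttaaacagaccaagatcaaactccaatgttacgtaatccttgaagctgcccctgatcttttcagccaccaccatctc
Akr1cl, chr1:65032710-65033009, minus strand: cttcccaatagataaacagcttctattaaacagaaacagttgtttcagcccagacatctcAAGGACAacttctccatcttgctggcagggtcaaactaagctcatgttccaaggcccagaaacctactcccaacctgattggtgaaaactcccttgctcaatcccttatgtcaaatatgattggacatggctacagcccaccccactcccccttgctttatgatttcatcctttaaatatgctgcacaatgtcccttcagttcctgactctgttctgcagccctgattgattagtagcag
Cyp11a1, chr9:58014702-58015001, plus strand: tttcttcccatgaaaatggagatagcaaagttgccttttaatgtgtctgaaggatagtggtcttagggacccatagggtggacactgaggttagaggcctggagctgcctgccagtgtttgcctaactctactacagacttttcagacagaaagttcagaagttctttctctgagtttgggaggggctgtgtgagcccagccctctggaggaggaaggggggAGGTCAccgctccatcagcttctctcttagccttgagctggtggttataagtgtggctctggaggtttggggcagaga

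AAGGNCA matched once, in Akr1cl, starting 190 bases before the start site. AGGTCA matched once, in the downstream window of Cyp11a1, starting 28 bases before it. The windows of Hsd3b1, Mgarp and Fdx1 and the upstream window of Cyp11a1 had no match, and no window had AAGGTCA or TATAAA. Of 32851 promoter windows of the same length, 20.3% held AAGGNCA, 16.3% AGGTCA, 4.72% AAGGTCA and 13.6% TATAAA.

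The members were chosen from their values in this contrast, so the other genes of the pathway are given as values and not set against them. Of 33 other steroid enzymes and carriers, 24 had their own probe set, 12 were kept, and 0 were past 2-fold in either direction, with a median difference of 0.00. Tspo, a protein of the outer mitochondrial membrane, read 1077 in the knockout pool and 955 in the Apoe-/- pool. Stard3, a cholesterol carrier of late endosomes, read 58.1 and 89.1 in the same order of pools, a difference of -0.51, while Hsd3b3, which was not kept, differed by 0.77. Among the kept genes of that list the next in size were Hsd17b12 (-0.27), Hsd17b4 (-0.25) and Hsd17b11 (-0.24), which convert steroids or fatty acids. Cyp17a1, which mouse testis uses for androgens, read 6.33 and 1.26, below the threshold in both pools.

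Genes that supply cholesterol to the pathway and genes that regulate it also had 0 members past 2-fold. For supply 8 of 8 measured genes were kept, with a median difference of 0.10. Scarb1, the HDL receptor that feeds cholesterol esters to steroid-producing cells, had 3 probe sets at 242, 209 and 113 in the knockout pool and 151, 168 and 115 in the Apoe-/- pool. The brightest of them differed by 0.63. Hmgcs1, an enzyme of cholesterol synthesis, split by probe set, with -0.63 for the brightest and -0.68, 0.09 and 0.01 for the others. Npc1 differed by 0.17 and Npc2 by 0.15. Of the regulators 9 of 16 measured genes were kept, with a median of 0.11. By the brightest probe set the widest differences were those of Nr4a2 (-0.49), Prkaca (-0.38), Nr4a1 (-0.32) and Crem (0.26). Another kept probe set of Crem read 46.2 in the knockout pool and 26.5 in the Apoe-/- pool, a difference of 0.55. Nr5a1, the transcription factor that sets up steroid-producing cells, had probe sets at 9.27 and 0.696 in the knockout pool and 1.49 and 0.555 in the Apoe-/- pool, all below the threshold.

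Markers of other tissues were read in the same pools. Of 11 adrenal cortex markers outside the 10 genes, 6 were measured, only Scarb1 was kept, and 0 were past 2-fold. Over the 6, the summed signal was 304 in the knockout pool and 185 in the Apoe-/- pool, of which 1 probe set of Scarb1 gave 242 and 151. Nr0b1, a defining gene of that tissue, read 2.70 in the knockout pool and 2.18 in the Apoe-/- pool, a difference of 0.04. The remaining measured markers, Nr5a1, Dlk1, Vsnl1 and Inha, were higher in the knockout pool, by 0.53, 0.53, 0.21 and 0.20. Apart from Scarb1, all of these markers were below the threshold in both pools. Their part in the steroid gene values was not tested.

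Of 15 markers of adrenal medulla and sympathetic nerves, 13 were measured, 10 were kept and 3 were at least 2-fold higher in the knockout pool. Their summed signal was 2004 in the knockout pool and 1492 in the Apoe-/- pool, a ratio of 1.34. The 3 are granule genes: Chga at 129 and 17.1, Chgb at 375 and 84.9, and Scg2 at 222 and 80.1, with the knockout pool named first. Pnmt, the enzyme that makes adrenaline, was higher in the knockout pool by every probe set, but by unequal amounts. The brightest read 39.7 in the knockout pool and 28.4 in the Apoe-/- pool, and another read 59.1 and 1.06. The dimmest read 6.28 and 4.51, below the threshold in both. Th, the first enzyme of catecholamine synthesis, read 128 in the knockout pool and 133 in the Apoe-/- pool, and Dbh, a later one, read 97.8 and 122. The part of medulla tissue in the steroid gene values was not tested.

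Leydig cell and testis markers, 7 of them measured, stood at most at 6.33 in the knockout pool and 4.49 in the Apoe-/- pool. Of the 7, 0 were kept. Most of the 7 are germ cell genes, and the Leydig cell genes Insl3 and Lhcgr had no probe set of their own symbol. Leydig cells were therefore hardly covered by this list. Of 7 measured kidney markers 0 were kept, with at most 32.3 in the knockout pool and 26.5 in the Apoe-/- pool. Lymphocyte markers summed to 698 in the knockout pool and 111 in the Apoe-/- pool over 7 genes; of 3 kept, Ms4a1 and Cd79b were at least 2-fold higher. Skeletal muscle markers summed to 7484 and 12826 in the same order of pools, with 4 of 10 kept genes at least 2-fold lower. The part of these tissues in the steroid gene values was not tested.

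Markers of the aortic wall, and also of fat and of macrophages, were present in both pools. All 9 smooth muscle markers were kept, with a median difference of 0.18, and Acta2, smooth muscle actin, read 2679 in the knockout pool and 2260 in the Apoe-/- pool. Of 6 kept brown fat markers 1 was at least 2-fold lower and 0 higher, with a median of -0.05. The 1 was Ppargc1a, a coactivator of mitochondrial genes, at 91.8 in the knockout pool and 228 in the Apoe-/- pool by its brightest probe set (-1.18), with its other probe sets between -0.95 and -0.01. Ucp1, the heat-producing carrier, read 2754 in the knockout pool and 2598 in the Apoe-/- pool. Of 4 measured white fat markers 3 were kept, with a median difference of 0.18 and 0 past 2-fold. Their highest signal was 4372 in the knockout pool, the maximum of that array, and 3534 in the Apoe-/- pool. Endothelial markers had 7 of 7 kept genes below 0, with a median of -0.28 and 0 past 2-fold. Macrophage markers had a median of 0.10.

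**Figure D3:**
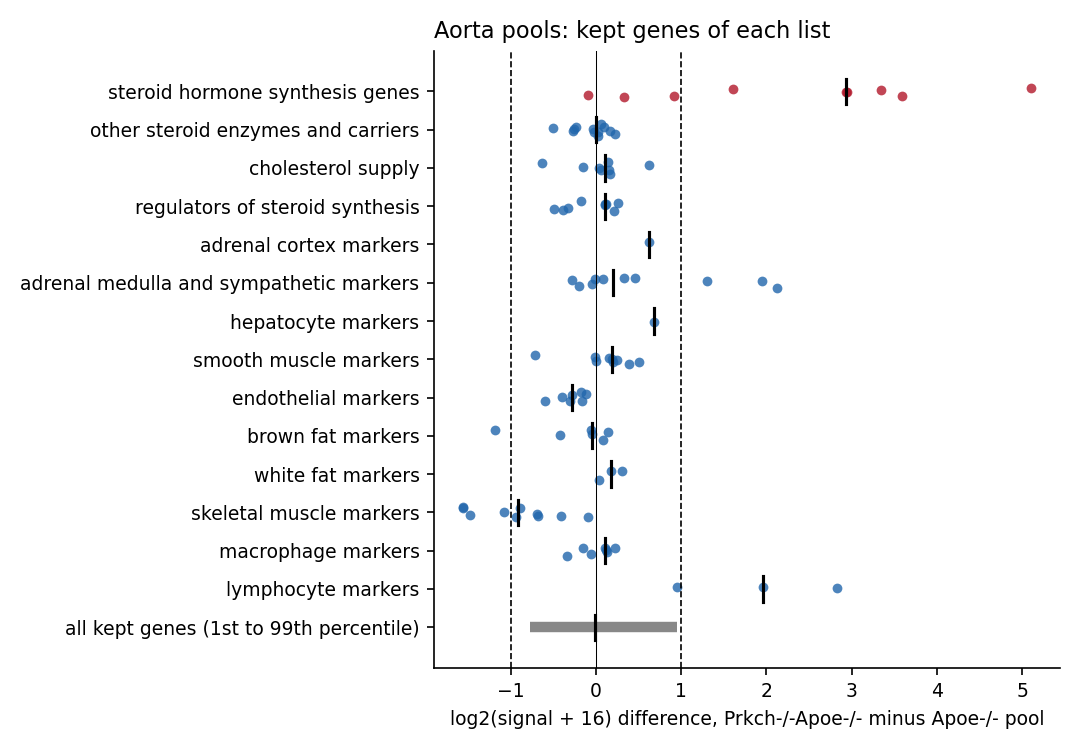
Differences between the aorta pools, knockout minus Apoe-/-, for the kept genes of each list, 1 point per gene, with black bars at the median and dashed lines at 2-fold. The grey bar spans the 1st to 99th percentile of all kept genes, -0.77 to 0.95, and 6 of the 9 kept steroid hormone synthesis genes lie past the upper 2-fold line along with Chga, Chgb, Scg2, Cd79b and Ms4a1.

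Among kept genes outside the group, predicted genes, pseudogenes and clone names were left aside. The 8 others with the largest differences in the direction of the group were Igkv8-30 (3.17), Ms4a1 (2.83), Hao2 (2.82), Jchain (2.80), Abcb1b (2.56), Cd3d (2.23), Chga (2.13) and Ly6d (2.11), by differences over 2 arrays. Several are genes of B and T cells: Igkv8-30 and Jchain are parts of antibodies, Ms4a1 encodes CD20 and Cd3d a chain of the T cell receptor complex. Hao2, a hydroxy acid oxidase, read 113 in the knockout pool and 2.24 in the Apoe-/- pool. Abcb1b, a drug efflux transporter, read 357 in the knockout pool and 47.2 in the Apoe-/- pool.

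Macrophages and liver were measured on another array type, whose values are log2 summaries by the authors, so their levels cannot be set against the aorta signals. Every member has 1 probe set there. As a check of the tissues, macrophage markers lay at a median percentile between 98.2 and 99.4 on the macrophage arrays, and hepatocyte markers at 99.8 on the liver arrays. Prkch, by its brighter probe set, was at 9.36, 8.79 and 8.87 in knockout macrophages against 9.94, 9.86 and 9.31 in Apoe-/- macrophages, and 5.93 and 5.65 in knockout livers against 6.57 and 6.87 in Apoe-/- livers. By that probe set the genotypes overlapped in macrophages, where knockout replicate 1 lay above Apoe-/- replicate 3, and were apart in liver. The other probe set read 6.85, 6.62 and 6.62 in knockout macrophages against 7.06, 7.14 and 6.85 in Apoe-/- macrophages, and 3.94 and 4.21 in knockout livers against 4.08 and 4.04 in Apoe-/- livers, with overlap in both tissues. In the aorta Prkch read 9.94 in the knockout pool and 17.2 in the Apoe-/- pool, below the threshold in both.

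In macrophages the 6 genes tested did not differ between genotypes past the threshold, and neither did the 5 tested in liver. Of those tested, all but Fdx1 stayed at or below percentile 49.7 on every macrophage array. In liver Star, Cyp21a1 and Cyp11b2 stayed at or below percentile 51.3. Whether genes this dim are expressed there was not tested, so little is read from their lack of a difference. Genotypes were apart with no overlap for 0 of the 10 genes in macrophages. Of all genes there, 0.562% had every knockout array above and 1.37% every knockout array below the Apoe-/- arrays. For 7 of the 10 genes, arrays of both genotypes held exactly the same value, so these 7 could not come out apart. Ties of this kind also keep other genes from being apart, so nothing is read from the 0. Limma with Benjamini-Hochberg adjustment called 0 of the tested members in each tissue at an adjusted p under 0.05, and 0 had an unadjusted p under 0.05. The background was 0% called in either direction over 15039 macrophage genes, with 105 at that unadjusted p. In liver it was 0.00627% called higher and 0% called lower over 15942 genes, with 684 at that unadjusted p. Dim genes, those whose mean fell under the 30th percentile, went untested, which left out Hsd3b1, Akr1cl, Mgarp and Mc2r in both tissues and Cyp11a1 in liver.

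Values on 3 of the macrophage arrays limit the comparison. Knockout replicates 2 and 3 and Apoe-/- replicate 3 coincided pairwise at 16075 to 18000 of 35557 probe sets, against 0 to 69 for all other pairs of macrophage arrays. For 7 of the 10 genes these 3 arrays gave exactly the same value, one that between 17 and 112 probe sets of the array shared. Star and Cyp11b2 both read 6.29 on each of the 3. Differences within these arrays were therefore 0 for the 7 genes. The spread of each comes from the other arrays and from the offset between them and these 3. As the 3 hold 2 knockout arrays and 1 Apoe-/- array, the macrophage differences and intervals mix that offset with genotype. Within the other arrays, 1 knockout and 2 Apoe-/-, the tested genes among the 7 differed by 0.14 (Star), -0.11 (Cyp11b2), -0.15 (Mrap) and 0.07 (Fdx1).

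Star read 6.52, 6.29 and 6.29 in knockout macrophages against 6.51, 6.25 and 6.29 in Apoe-/- macrophages. The genotypes overlapped, and the difference was 0.02 (95% interval -0.25 to 0.28). In liver Star read 5.29 and 5.19 in knockouts against 5.03 and 5.08 in Apoe-/- mice. Here both knockout arrays were above both controls, by 0.18 (95% interval -0.11 to 0.48; limma with Benjamini-Hochberg, adjusted p = 1.00). Among all genes, 12.3% had both knockout livers above both controls.

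Cyp11a1 read 5.95, 5.87 and 5.73 in knockout macrophages against 5.85, 5.94 and 6.09 in Apoe-/- macrophages, a difference of -0.11 (95% interval -0.36 to 0.13). The difference was -0.30 within the 3 arrays with coinciding values and 0.06 within the other 3, so its sign depended on the arrays used. In liver it read 4.48 and 4.11 in knockouts against 4.30 and 4.38 in Apoe-/- mice, between percentiles 19.1 and 23.0 of the arrays. The genotypes overlapped in both tissues.

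Hsd3b1 fell under the filter for testing in both tissues. It read 4.34, 3.78 and 3.78 in knockout macrophages against 4.44, 4.30 and 3.78 in Apoe-/- macrophages, between percentiles 6.3 and 10.5. In liver it read 3.03 and 2.89 in knockouts against 3.06 and 3.06 in Apoe-/- mice, between percentiles 6.8 and 8.2. Both knockout livers were below both controls, as were 17.3% of all genes, and with no filter on dim genes the difference was -0.10 (limma with Benjamini-Hochberg, adjusted p = 1.00).

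Cyp21a1 read 6.07, 5.74 and 5.74 in knockout macrophages against 5.70, 5.76 and 5.82 in Apoe-/- macrophages, a difference of 0.09 (95% interval -0.18 to 0.37). The difference was -0.07 within the 3 arrays with coinciding values and 0.34 within the other 3, and -0.01 without knockout replicate 1. In liver it read 5.82 and 5.36 in knockouts against 5.87 and 5.22 in Apoe-/- mice, a difference of 0.05 with the widest interval of the liver genes tested, -0.50 to 0.59. Cyp11b2 differed by -0.12 in macrophages (95% interval -0.35 to 0.12) and by -0.04 in liver (95% interval -0.40 to 0.32). Akr1cl, Mgarp and Mc2r stayed at or below percentile 18.7 on every macrophage and liver array.

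Mrap and Fdx1 were above the threshold in both aorta pools. In liver, Mrap read 8.77 and 9.28 in knockout livers against 9.01 and 9.13 in Apoe-/- livers, between percentiles 88.1 and 90.8. Fdx1 read 9.33 and 8.91 in knockout livers against 9.21 and 9.25 in Apoe-/- livers, between percentiles 88.5 and 91.5. Their liver differences were -0.04 (95% interval -0.46 to 0.38) and -0.11 (95% interval -0.49 to 0.27), and the genotypes overlapped.

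In macrophages Mrap lay between percentiles 43.4 and 49.7 and Fdx1 between 58.8 and 60.6. Mrap read 6.46, 6.47 and 6.47 in knockout macrophages against 6.50, 6.71 and 6.47 in Apoe-/- macrophages, a difference of -0.09 (95% interval -0.31 to 0.12). Fdx1 read 7.35, 7.23 and 7.23 against 7.34, 7.23 and 7.23 in the same order of genotypes, a difference of 0.00 (95% interval -0.20 to 0.20).

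**Figure D4:**
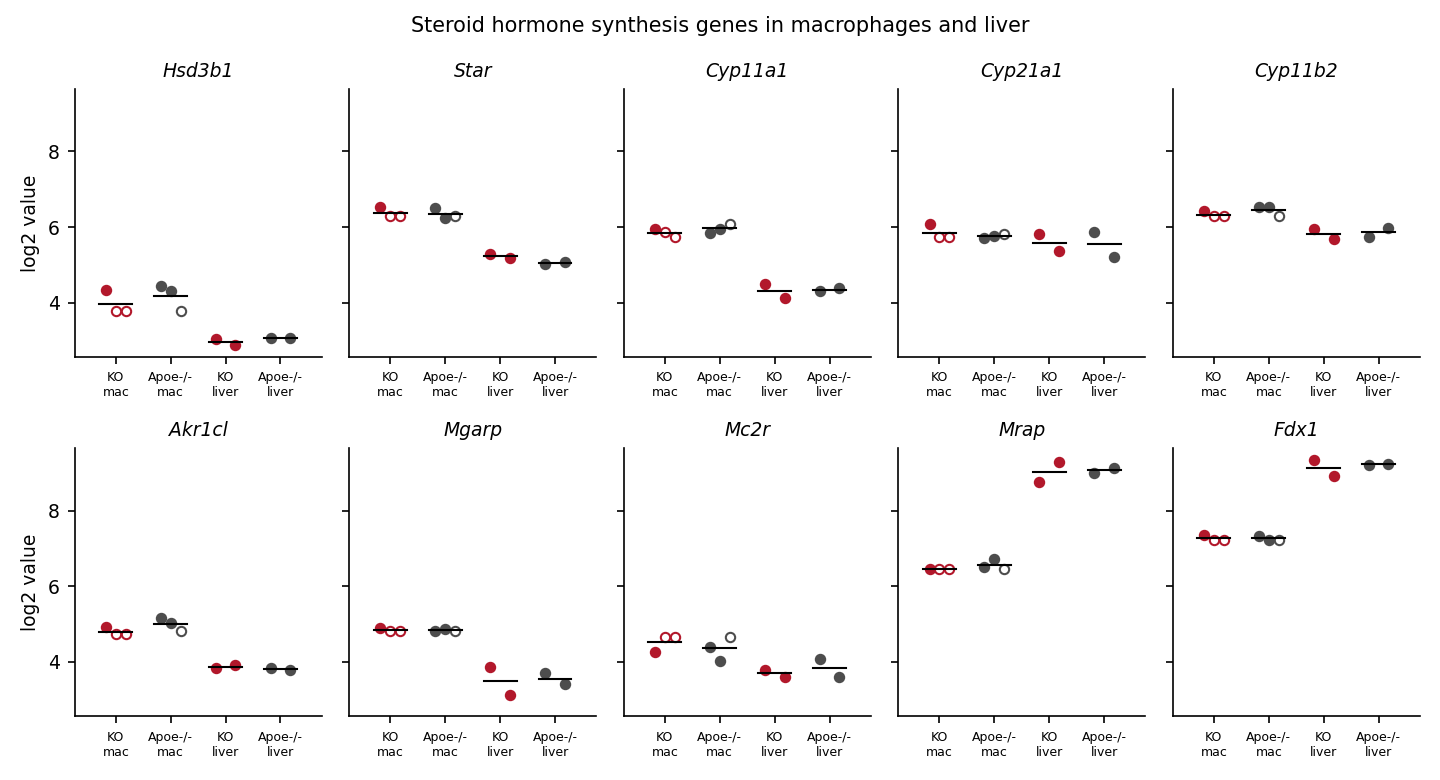
Log2 values of the 10 genes on each macrophage and liver array, with KO for Prkch-/-Apoe-/- mice in red, Apoe-/- mice in grey and bars at the group mean. Open points are the 3 macrophage arrays with coinciding values. Knockout and Apoe-/- points overlap for all 10 genes in macrophages, where identical values force this for 7 of them, and for 8 in liver. Of all genes, 12.3% had both knockout livers above and 17.3% both below the Apoe-/- livers.

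The difference between the macrophage and the liver effect of the knockout was tested for 5 members in 1 limma fit over both tissues, in which sex, diet and age change with the tissue. With Benjamini-Hochberg adjustment limma called 0 of the 5, 0 were at an unadjusted p under 0.05, and the background was 0% called in either direction over 15548 genes, with 313 at that unadjusted p. The values ran from -0.17 for Star to 0.11 for Fdx1.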

How the data were processed

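Expression was measured on 12 Affymetrix arrays, 6 of macrophages and 4 of liver (Mouse Gene 1.0 ST) and 2 of aorta (Mouse Genome 430A 2.0). Per the submitters' processing notes the authors used Affymetrix Expression Console; version and algorithm: not given in the sources used here. By their range, the values the authors deposited for macrophages and liver are log2 summaries, normalized before deposit. For the aorta the authors deposited linear signal intensity, with a mean of 100.04 on both arrays once the lowest and highest 2% are left out. The number of arrays limits the precision.

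Gene names come from the platform annotation, and only probe sets with 1 symbol were used (20393 of 22690 in the aorta). A gene was represented by its brightest probe set. The aorta difference was taken on log2(signal + 16) and counted past 2-fold, with no test. Each tissue had its own fit with limma 3.58.1 in R 4.3.3 (lmFit and eBayes, no covariate, Benjamini-Hochberg over all genes tested), and the code was tested on simulated data. Nothing but the label "biological" says that arrays came from separate animals, so p-values cover only array-to-array spread. The members, the 15 other gene lists and the filters were chosen with earlier results of these data known. All members and all their probe sets were named. Up to 4 kept genes with the largest difference were named from each pathway list. Of the marker lists, only genes that a result turns on were named. The 8 non-members most like the group were named too, leaving out predicted genes, pseudogenes and clone names. Genes named beyond that rule (Tspo, Cyp17a1, Hsd3b2, Hsd3b3, Nr5a1, Nr0b1, Dlk1, Vsnl1, Inha, Pnmt, Th, Dbh, Ucp1 and Prkch) were chosen after their values were seen.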

Additional observations from a re-analysis of the deposited data

How the results depend on the processing

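The count of 6 members past 2-fold in the aorta was 7 with a pseudocount of 1, where Mc2r joined, and 5 with the filter at the 75th percentile; it was 6 under the other alternatives. All member differences in the aorta kept their sign except that of Mrap, 0.07 with the mean of its probe sets. Hsd3b1 ran from 4.18 to 8.29 and Star from 2.82 to 4.22 over the pseudocounts, scalings, filters and probe set rules. Over all genes, a pseudocount of 1 gave 111 higher and 58 lower, the same median on both arrays gave 55 higher and 45 lower, and the filter at the 75th percentile gave 35 higher. The same-median scaling put the median of all kept genes at -0.11. In macrophages, liver and the contrast between them, 0 members were called under every alternative run, with adjusted p from 0.568 to 1.00; without single arrays the count again ran from 0 to 0. With the replicate block 0 members were called in each. Same-numbered macrophage arrays match in age between genotypes, but the labels name no shared batch, litter or day. Their deviations correlated at 0.40, 0.03 and 0.50, against -0.46 to 0.19 for macrophage arrays of unlike number. The pair at 0.03 joins an array of the coinciding set with an array outside it. With 2 liver arrays per genotype the correlations can only be equal in size (0.11 and -0.11), so they say nothing on pairing. Numbers were not taken as pairs in the main fits, and whether they are pairs was not settled. The block gave 23 liver genes called against 1 without it. Leaving out knockout liver replicate 2 gave 36. Small differences changed sign under some alternatives, 7 of 73 values in macrophages, 7 of 47 in liver and 9 of 65 between them. The aorta values rest on 1 array per genotype, and no alternative replaces a replicate.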

Other observations

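Probe sets that the annotation gives to several genes of the 3-beta-hydroxysteroid dehydrogenase family were left out of the counts. The 1 shared by Hsd3b6, Hsd3b3 and Hsd3b2 read 9.45 in the knockout aorta pool and 0.461 in the Apoe-/- pool, and the 1 shared by Hsd3b4, Gm4450 and Gm10681 read 3.60 and 0.438 in the same order of pools. All these values lie below the threshold of 32.6.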
